A study of Mus musculus with 9 samples.

Results

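TPA, which activates the transcription factor AP-1, was set against T-5224, which inhibits it, in mice that all received β-aminopropionitrile (BAPN), and aorta was profiled by bulk RNA sequencing. Its members were 4 of the 9 libraries of the series, chosen by the treatment label, with 2 for BAPN plus TPA and 2 for BAPN plus T-5224. All libraries came from C57BL/6J mice killed on day 28. BAPN blocks lysyl oxidase, the enzyme family that ties elastin and collagen fibres together, and was given at 1 g/kg/day. TPA, a phorbol ester, was injected intraperitoneally at 50 ng/g/day from day 1. T-5224, a small molecule directed at the DNA binding of Fos and Jun, was given by gavage at 5 mg/kg/day from day 7 or day 14. The T-5224 libraries, replicates 1 and 2, carry titles of 2 weeks and 3 weeks. These equal the spans from day 14 and from day 7 to day 28, though the labels do not tie the titles to a first day of gavage. Dose, route and length of treatment therefore differed between the arms. Length perhaps also differed between the T-5224 libraries. The other libraries were 2 from mice on water (normal), 2 from mice given BAPN without a second agent, and 1 from mice given BAPN and coQ10 at 10 mg/kg/day. The protocol names 12 mice per group. Which mice gave each library, whether tissue was pooled, and how old and of which sex they were, is not stated in the labels.

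AP-1 is a dimer of basic leucine zipper proteins of the Fos, Jun, Atf and Batf families that binds short DNA elements in promoters and enhancers. Phorbol esters such as TPA stand in for diacylglycerol, activate protein kinase C and, through the MAP kinases, raise Fos and Jun proteins, and the classic AP-1 site is also called the TPA response element. In the vessel wall AP-1 is known for driving cytokines, chemokines and matrix proteases in smooth muscle cells and macrophages.

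The 3 genes that passed the test between the arms, Krt13, Mt4 and Krtdap, and the cytokine gene Il6 have RefSeq promoter windows (GRCm38.p6) of 300 bases, from 250 before to 50 after the annotated start. Il6 did not pass, and unlike the 3 it was higher with BAPN alone (261 and 174 scaled FPKM) than with TPA (8.0 and 13.0). Capitals mark a match to the AP-1 element TGANTCA. Krt13 has 2 windows, of which the outermost is shown, at chr11:100121517-100121816 on the minus strand. Krtdap is at chr7:30787655-30787954, Mt4 at chr8:94136954-94137253 and Il6 at chr5:30012864-30013163, each on the plus strand.
Krt13: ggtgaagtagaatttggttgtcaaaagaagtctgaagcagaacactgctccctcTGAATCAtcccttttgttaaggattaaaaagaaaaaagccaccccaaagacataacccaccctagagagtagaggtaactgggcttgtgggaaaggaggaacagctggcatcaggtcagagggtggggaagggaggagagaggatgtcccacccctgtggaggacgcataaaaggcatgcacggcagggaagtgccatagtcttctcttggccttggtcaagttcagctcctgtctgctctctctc
Krtdap: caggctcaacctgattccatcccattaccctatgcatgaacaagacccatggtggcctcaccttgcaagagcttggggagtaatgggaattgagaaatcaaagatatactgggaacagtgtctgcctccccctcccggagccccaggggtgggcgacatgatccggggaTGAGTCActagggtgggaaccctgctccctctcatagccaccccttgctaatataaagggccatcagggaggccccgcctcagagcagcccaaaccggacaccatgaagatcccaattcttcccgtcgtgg
Mt4: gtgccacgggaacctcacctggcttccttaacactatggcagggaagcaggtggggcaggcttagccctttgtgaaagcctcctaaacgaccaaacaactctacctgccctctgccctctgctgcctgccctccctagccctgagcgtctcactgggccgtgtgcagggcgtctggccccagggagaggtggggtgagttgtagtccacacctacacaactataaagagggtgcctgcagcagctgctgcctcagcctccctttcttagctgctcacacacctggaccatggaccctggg
Il6: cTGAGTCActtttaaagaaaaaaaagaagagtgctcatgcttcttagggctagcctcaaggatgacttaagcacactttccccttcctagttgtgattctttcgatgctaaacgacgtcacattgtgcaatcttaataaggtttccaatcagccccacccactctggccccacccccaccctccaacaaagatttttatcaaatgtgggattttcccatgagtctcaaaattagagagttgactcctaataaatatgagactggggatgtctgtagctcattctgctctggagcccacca
The Krt13 match, TGAATCA, began 196 bases before the start. The Krtdap match, TGAGTCA, began 81 bases before the start, and the same letters began 249 bases before the Il6 start. The Mt4 window held none. TGANTCA reads the same on both strands, and it was present in 6.33% of the 9908 tested genes with a window. Of the 12 genes with the smallest p among those higher in TPA without overlap, 11 had a window and 3 held the element. These 3 were Krt13, Krtdap and Il6, so the windows shown include every match. Cxcl1, with a smaller p than Il6, held no match and is not shown. Has1 held the related cyclic AMP element TGACGTCA, 83 bases before the start of its window's transcript, and 3.43% of tested genes held that element. Among the genes long known as AP-1 targets 8 of 20 windows held TGANTCA, and among the AP-1 subunit genes 0 of 11 did. A match describes letters in a window and does not show binding.

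The libraries differed in ways that bear on each value below. The authors' FPKM (fragments per length and library size) were divided by a library factor, the median ratio over 12834 genes, and the result is called scaled FPKM. Haemoglobin genes held 69.4% and 69.2% of the FPKM in the TPA libraries, 40.8% in T-5224 replicate 1 and 11.2% in T-5224 replicate 2. They held 68.9% and 74.1% with BAPN alone, 1.25% and 1.03% on water and 5.4% in the coQ10 library. Levels of 12978 genes correlated at a Pearson r of 0.966 between the TPA libraries and 0.795 between the T-5224 libraries, a description across genes on the log2 scale. Across the arms r ran from 0.845 to 0.876, so each T-5224 library correlated better with both TPA libraries than with the other T-5224 library. The median absolute log2 difference was 0.211 within the TPA pair and 0.729 within the T-5224 pair. The rank correlation of a gene's deviation with transcript length was 0.11 and 0.082 in TPA, 0.013 in T-5224 replicate 1 and -0.37 in T-5224 replicate 2. As a check of the aortic label, the mean log2 level of the 20 contractile smooth muscle genes was 6.41 and 6.65 with TPA, and 7.12 and 6.14 with T-5224. In bulk tissue, fewer cells of a type and less RNA per cell cannot be told apart. Nothing says that libraries came from separate animals, so p-values measure the spread between these samples, which may be technical.

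**Figure D1:**
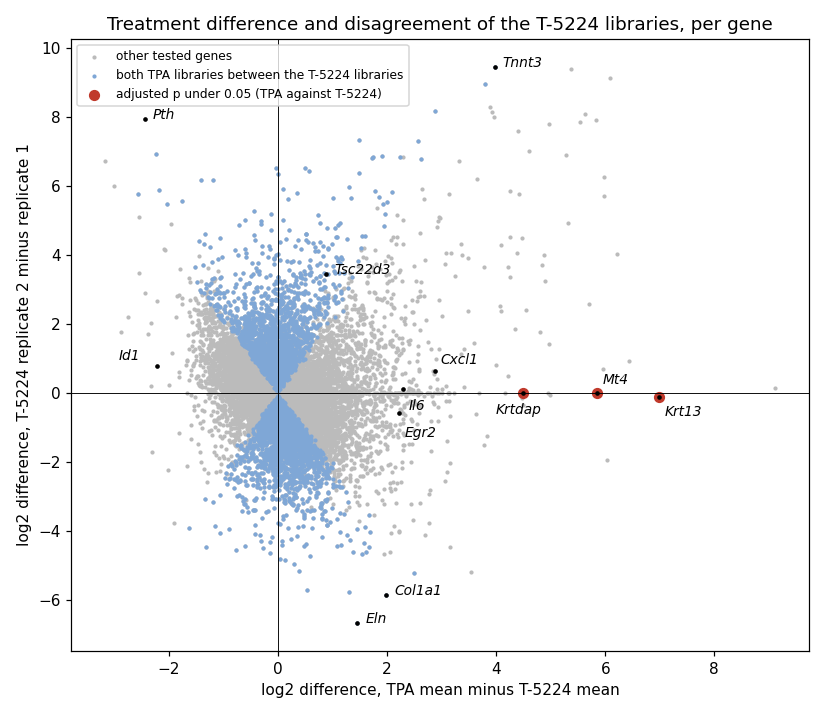
Each point is 1 of the 12978 tested genes, with the log2 difference between the TPA and T-5224 means on the x axis and that between T-5224 replicates 2 and 1 on the y axis. The 3 genes that passed (red) lie far to the right at a y value near 0. Mt4 and Krtdap are listed at 0 in both T-5224 libraries, which sets their y value. Eln, Col1a1, Tnnt3 and Pth spread along the y axis.

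Genes of stratified squamous epithelium, the lining of skin and oesophagus, stood far higher in TPA than in T-5224. The 3 of them that passed the test were tested only through the TPA libraries. Krt13, a keratin of the suprabasal layers, was at 97.1 and 223 scaled FPKM in the TPA libraries and at 0.219 and 0.12 in the T-5224 libraries. Mt4, a metallothionein of squamous epithelium, was at 52.4 and 61.0 in TPA and was listed in no other library. Krtdap, a protein of differentiating keratinocytes, was at 17.2 and 26.5 in TPA and was likewise listed in no other library. In each of the 3 both TPA libraries lay above both T-5224 libraries, and the water and BAPN libraries held at most 0.323 for Krt13. The genes lie at chromosome 11, 100117327 to 100121566 (Krt13), chromosome 8, 94137204 to 94139031 (Mt4), and chromosome 7, 30787905 to 30791089 (Krtdap), all protein-coding.

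On the log2(scaled FPKM + 1) scale Krt13 was higher by 6.99 (SE 0.439, adjusted p = 0.00515, limma with Benjamini-Hochberg adjustment). Mt4 was higher by 5.85 (SE 0.337, adjusted p = 0.00515, limma) and Krtdap by 4.48 (SE 0.391, adjusted p = 0.0331, limma), with no fold given because T-5224 is listed at 0. These 3 of 12978 tested genes are 0.0231%, and 0 genes fell (0%), with 643 higher and 436 lower at an unadjusted p under 0.05. The 3 genes passed the filter on low values only through the TPA libraries, so they had to differ in level. Krt13 and Mt4 did not pass in a fit of the 4 libraries alone (adjusted p = 0.225 and 0.118, limma), with a pseudocount of 0.1 (0.204 and 0.592) or at a mean FPKM of at least 5 (0.194 and 0.568), and each of these settings called 0 genes. With the TPA arm at 1 library, without TPA replicate 1 or TPA replicate 2, 0 genes were called, while the log2 differences stayed at 7.58 and 6.39 for Krt13, 5.96 and 5.74 for Mt4 and 4.78 and 4.18 for Krtdap. Without normal replicate 1 or normal replicate 2 there were 7 higher genes. Without T-5224 replicate 1 there were 186 higher and 272 lower, in a fit where that arm is 1 library and its spread is assumed to be that of the other groups, which holds for each value given below without a T-5224 library. Krtdap did not pass without T-5224 replicate 2 (adjusted p = 0.0852), without BAPN replicate 1 (0.154) or BAPN replicate 2 (0.146), or on FPKM as deposited (0.0549), all in limma.

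Of 18 squamous markers 12 were tested, and 11 lay above both T-5224 libraries with a median log2 difference of 4.48, against 22.4% and 0.0509 over all tested genes. In 8 of the 12 the mean without the TPA libraries was under the filter of 1, so that they were tested through TPA and had to lie above, and the count and median are a description only. Their part in the other differences was not tested. Krt4, a mucosal keratin, was at 23.0 and 42.8 in TPA and at 0.0365 and 0 in T-5224 (adjusted p = 0.114, limma). Krt14, a keratin of basal cells, was at 20.9 and 59.0 in TPA and at 0.712 and 0.548 in T-5224 (adjusted p = 0.214, limma). Lgals7, an epithelial galectin, was at 76.7 and 212 against 2.85 and 0, and Cnfn, a cornified envelope protein, at 6.96 and 9.99 against 0 and 0. None of these 4 passed (adjusted p = 0.182 for Lgals7 and Cnfn, limma), though both TPA libraries exceeded both T-5224 libraries in each. Against T-5224 replicates 1 and 2 the log2 differences were 4.97 and 5.02 for Krt4 and 4.41 and 4.55 for Krt14. They were 5.06 and 7.01 for Lgals7, and 3.225 for Cnfn with either. Krt4, Krt14 and Cnfn, like the 3 genes that passed, were tested only through the TPA libraries, so they had to differ in level. Angptl1, a secreted angiopoietin-like protein, at 7.95 and 8.47 against 1.43 and 1.48, and Heg1, an endothelial junction receptor, at 14.7 and 17.1 against 3.68 and 1.54, were also among the 12 genes with the smallest p, and neither passed (adjusted p = 0.405 for both, limma). The summed scaled FPKM of the 18 markers was 454 and 772 with TPA, 9.24 and 31.5 with T-5224, 11.6 and 53.0 in BAPN and 92.0 and 4.67 in normal. Of the defining markers 7 were listed at 0 in both T-5224 libraries, and none was at 0 in both TPA libraries.

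**Figure D2:**
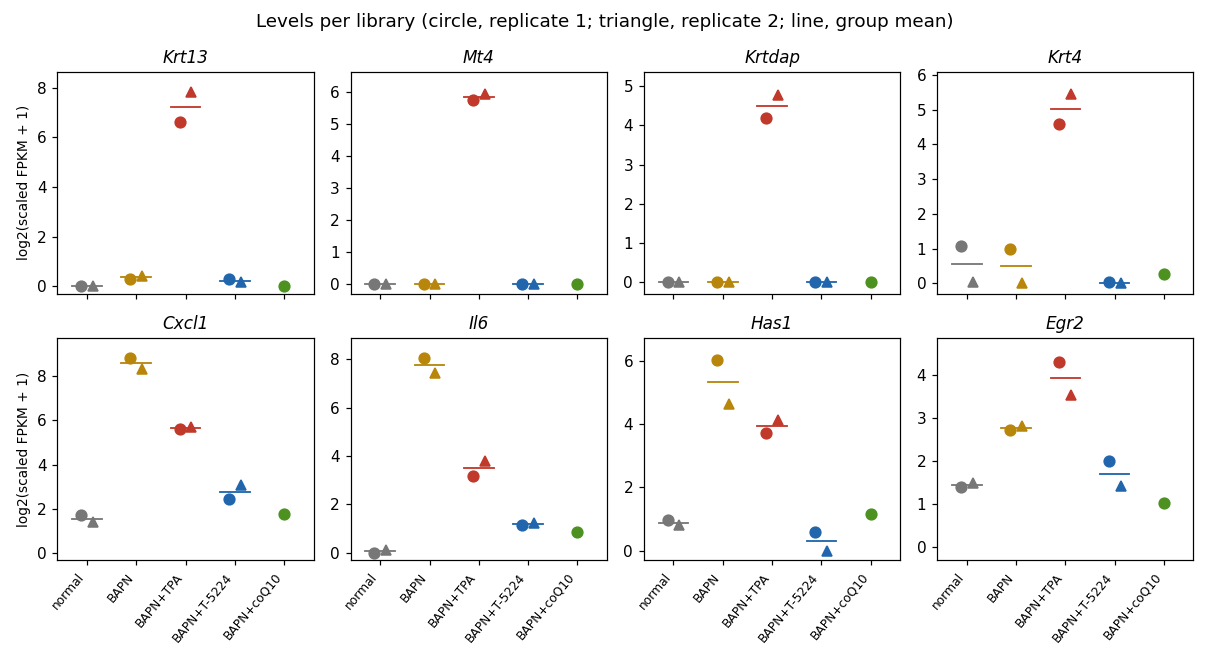
Levels of 8 genes as log2(scaled FPKM + 1), 1 symbol per library and a line at the mean of each group of 2. Krt13, Mt4, Krtdap and Krt4 are near 0 outside the TPA libraries, while Cxcl1, Il6 and Has1 are highest with BAPN alone and Egr2 is highest with TPA.

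Cytokine genes stood higher in TPA than in T-5224 without passing the test, and Cxcl1 and Il6 were far below BAPN alone. Cxcl1, a neutrophil-attracting chemokine, was at 48.2 and 51.4 in TPA and at 4.50 and 7.57 in T-5224. With BAPN alone Cxcl1 was at 442 and 317, and on water at 2.28 and 1.63. Its groups did not overlap, with a log2 difference of 2.89 (SE 0.346, adjusted p = 0.166, limma). Il6, an acute-phase cytokine, was at 8.0 and 13.0 with TPA, at 1.19 and 1.37 with T-5224 and at 261 and 174 with BAPN alone. The Il6 difference was 2.30 (SE 0.349, adjusted p = 0.335, limma), again with no overlap.

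Il1b, the interleukin-1β gene, spanned 98.2 and 13.0 in TPA and 8.51 and 1.95 in T-5224, so 1 TPA library carried most of its height. Cxcl2, a second neutrophil chemokine, was at 6.07 and 11.6 against 2.88 and 1.37. Has1, which makes hyaluronan, was at 12.2 and 16.8 in TPA and at 0.52 and 0 in T-5224. With BAPN alone Cxcl2 (119.5 and 85.5) and Has1 (65.5 and 23.9) stood above both TPA libraries, and Il1b (107 and 61) overlapped them. Of 21 tested cytokine and chemokine genes 11 lay above both T-5224 libraries and 0 below both, where 22.4% and 20.6% of all tested genes did, and none passed. Their median log2 difference was 0.9 and stayed above 0 in each of the 20 alternative settings, from 0.315 to 1.44. The mean log2 level of these 21 genes was 3.72 and 3.52 with TPA and 5.74 and 5.32 with BAPN alone. With a lone T-5224 library, Cxcl1 (adjusted p = 0.0433), Il6 (0.0467) and Has1 (0.0433) passed in limma against replicate 2 and did not against replicate 1 (0.0886, 0.209 and 0.217).

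None of the 12 AP-1 subunit genes passed between the arms, and their directions were mixed. Fos, the founding Fos family member, was at 502 and 249 in TPA and at 128 and 225 in T-5224. Fosb was at 88.6 and 39.7 against 31.3 and 23.1, and Fosl2 at 28.1 and 27.8 against 18.4 and 14.8. Junb, a Jun family member, was at 344 and 223 against 153 and 170. These 4 genes and Batf, a leucine zipper partner of Jun in immune cells, lay above both T-5224 libraries. That was 5 of 12 genes, where 22.4% of all tested genes lay above both. Batf was at 3.40 and 3.55 in TPA and at 2.85 and 0 in T-5224, so the latter pair spread more widely than the arms differed, and it passed without T-5224 replicate 1 (adjusted p = 0.0493, limma).

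Jun, the classic Fos partner, was at 197 and 136 in TPA and at 79.3 and 172 in T-5224, and the groups overlapped. Atf3, a stress-induced family member, also overlapped, at 83.8 and 51.7 against 20.0 and 73.7. Jund, a broadly expressed Jun gene, was at 136 and 124 in TPA and at 170 and 185 in T-5224, and Atf2 at 12.0 and 11.1 against 13.0 and 12.2. Both lay below both T-5224 libraries, which was 2 of 12 genes, where 20.6% of all tested genes did. Fosl1 had both TPA libraries between the T-5224 libraries, at 0.728 and 2.39 against 3.46 and 0.488. Batf3 and Jdp2, a repressor of AP-1, overlapped, with log2 differences of -0.18 and 0.17. Adjusted p over the 12 genes ran from 0.577 (Junb) to 0.977 (Fosl1) in limma. The list's median log2 difference was 0.602, and it was -0.0846 on TPM, a scaling that moved the median of all genes from 0.0509 to -0.524. Relative to all genes the list stood 0.551 higher, and 0.439 higher on TPM. Jun and Jdp2 changed sign on TPM, and Fosl1, Jund, Atf2 and Batf3 with haemoglobin left out of the sum, which moved the median of all genes to 0.534. Relative to all genes Jun, Jdp2, Jund and Atf2 kept their sign in both scalings, while Fosl1 and Batf3 were 0.025 and 0.027 higher on TPM.

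**Figure D3:**
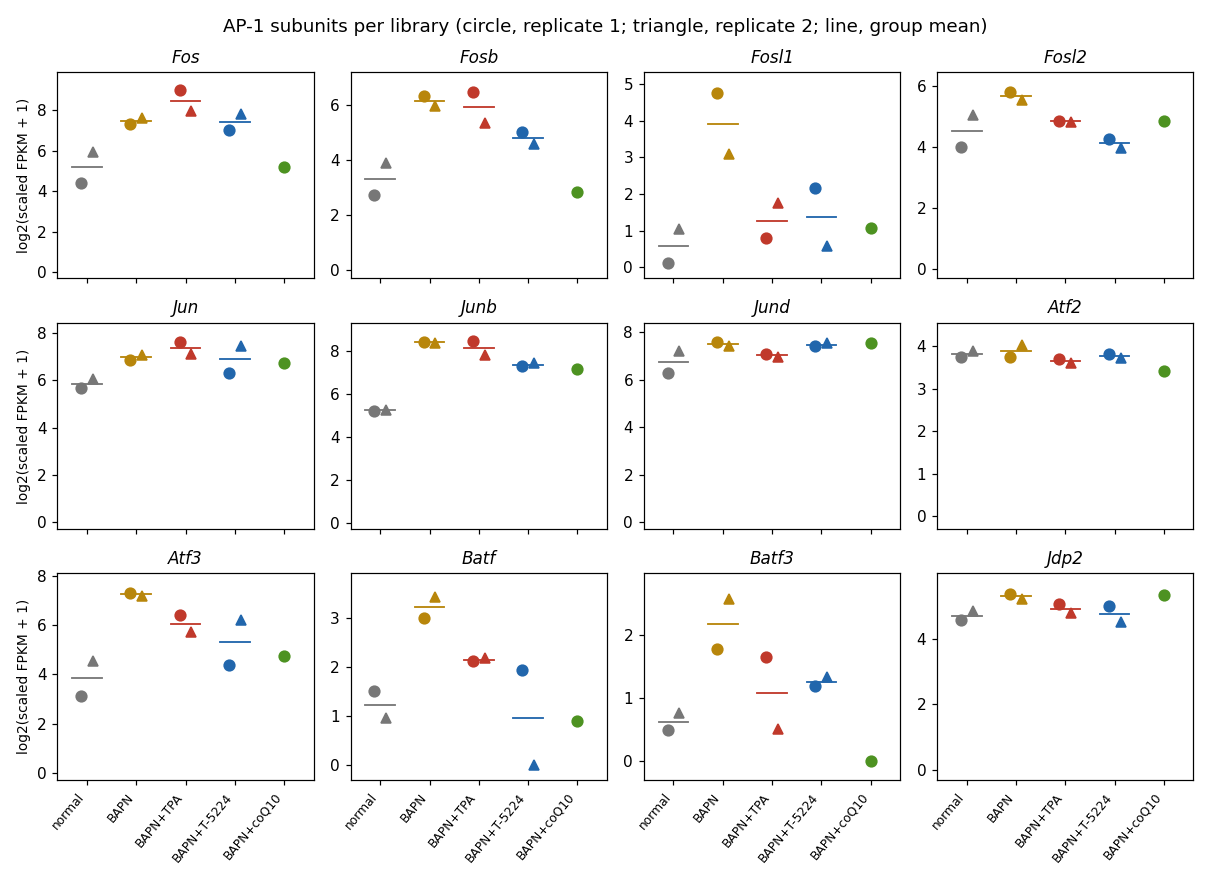
Levels of the 12 AP-1 subunit genes as log2(scaled FPKM + 1), 1 symbol per library and a line at the mean of each group of 2. Fos, Fosb, Fosl2, Junb and Batf have both TPA symbols above both T-5224 symbols, and Jun and Atf3 overlap because T-5224 replicate 2 lies near the TPA libraries.

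Immediate early genes, which are transcribed within minutes of a stimulus, stood higher in TPA for most members. Egr2, a zinc finger factor, was at 18.8 and 10.6 in TPA and at 2.98 and 1.67 in T-5224 (log2 difference 2.22, SE 0.38, adjusted p = 0.432, limma, and 0.0437 without T-5224 replicate 1). Egr3 was at 16.6 and 10.8 against 3.47 and 0.897, Zfp36, which destabilises cytokine mRNA, at 381 and 268 against 112 and 107, and Myc at 19.6 and 24.3 against 5.98 and 8.89. None of these groups overlapped. With BAPN alone Zfp36 (419 and 445) and Myc (55.5 and 48.8) stood above both TPA libraries. Egr2 (5.61 and 5.95) stood below both TPA libraries, and Egr3 (14.3 and 17.4) overlapped them. Of 18 tested genes outside AP-1, 11 lay above both T-5224 libraries and 0 below both, where 22.4% and 20.6% of all tested genes did, with a median of 1.02 that ranged from 0.338 to 1.56 over the alternatives.

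The genes that damp MAP kinase signals gave 6 of 12 above both libraries, with a median that stood 0.452 above that of all genes, and 0.421 above it on TPM. Dusp2, a MAP kinase phosphatase, was at 2.91 and 3.31 in TPA and at 0.146 and 0 in T-5224 (adjusted p = 0.506, limma). Dusp1, another such phosphatase, was at 397 and 342 against 240 and 134. For the receptors of phorbol esters, 4 of 12 protein kinase C and related genes lay above both libraries, against 22.4% of all genes. Rasgrp1, a Ras activator that binds phorbol ester, was at 2.04 and 2.36 against 0.374 and 0.379. Of 13 NF-kB genes 7 lay above both, among them the feedback inhibitor Tnfaip3 at 8.35 and 5.19 against 1.90 and 1.35, and their median stood 0.516 above that of all genes, and 0.43 above it on TPM. The inducible chaperone gene Hspa1b was at 223 and 209 against 23.7 and 35.0, with no overlap and an adjusted p of 0.577 in limma. With BAPN alone Dusp2 (6.92 and 12.2), Rasgrp1 (2.60 and 5.54) and Tnfaip3 (34.7 and 29.5) stood above both TPA libraries. Dusp1 (255 and 165) and Hspa1b (26.1 and 21.2) stood below both.

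Among 29 tested genes known as AP-1 targets, 11 lay above both T-5224 libraries, 0 below both and 8 had TPA between them. Over all tested genes these shares were 22.4%, 20.6% and 33.8%. The median of the 29 targets was 0.485, from 0.0739 to 0.966 over the alternatives, and none of them passed. The matrix metalloprotease gene Mmp2, from the list of proteases, was at 95.4 and 64.5 in TPA and at 29.3 and 17.1 in T-5224. Mmp19 was at 11.1 and 7.60 against 3.87 and 1.58. The bone-degrading cathepsin gene Ctsk was at 48.7 and 26.6 against 21.6 and 10.9. All 3 groups were without overlap, and 7 of 25 tested proteases and inhibitors lay above both, a share near the 22.4% of all genes.

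No gene fell in TPA against T-5224 in the fit to 9 libraries, where the smallest adjusted p among lower genes was 0.506 in limma, and 272 did without T-5224 replicate 1. Id1, an inhibitor of basic helix-loop-helix factors and a target of BMP signals, was at 65.0 and 46.5 with TPA and at 198 and 337 with T-5224. Id2 was at 42.7 and 38.3 against 171 and 89.4, and Id3 at 242 and 197 against 418 and 494. All 3 Id genes had both TPA libraries below both T-5224 libraries, with log2 differences of -2.21, -1.59 and -1.05. With BAPN alone Id1 was at 56.9 and 35.2, near TPA, and so was Id2, at 38.8 and 33.9. Id3, at 355 and 273, stood above both TPA libraries. On water Id1 was at 172 and 360, Id2 at 54 and 180 and Id3 at 156 and 409. In their list of 18 TGF-beta response genes these 3 lay below both and 2 above both, against 20.6% and 22.4% of all tested genes. In that list 9 had TPA between, against 33.8% of all tested genes, and the median was 0.174. Tagln, a contractile protein of smooth muscle, was at 769 and 936 with TPA, at 3146 and 1560.0 with T-5224 and at 1194 and 446 with BAPN alone. In its list of 20 contractile genes 2 lay below both T-5224 libraries and 3 above both, against 20.6% and 22.4% of all tested genes. Among the 3 was Tpm1, a tropomyosin, at 1788 and 2301 against 1287 and 1331. The antioxidant gene Txn1 was at 76.8 and 76.5 against 129.9 and 234, and Prdx1 at 177 and 142 against 228 and 363. They are 2 of 4 genes below both among 20 antioxidant genes, against 20.6% of all tested genes, and the list's median was -0.0439. Lst1, a leukocyte gene, was at 7.59 and 3.59 against 28.4 and 32.8 (adjusted p = 0.506, limma). The linker histone gene H1f0 was at 54.2 and 53.2 against 130.3 and 207, and passed without T-5224 replicate 1 (adjusted p = 0.0437, limma). Genes with TPA below both T-5224 libraries had a median transcript length of 2529.5 bases, those above both 4051 and all tested genes 3341. With the length trend removed 3 genes were higher and 0 lower, and Krtdap was not among the 3 (adjusted p = 0.0694, limma).

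Markers of several other cell types stood higher in TPA, and those of others did not. All 8 tested T cell markers lay above both T-5224 libraries, with a median log2 difference of 2.08, and all 7 tested B cell markers, with 2.07, where 22.4% of all tested genes lay above both. Cd3g, a chain of the T cell receptor complex, was at 24.6 and 19.9 in TPA and at 1.83 and 0 in T-5224. Cd79a, its B cell counterpart, was at 67.8 and 12.0 against 3.24 and 1.67. BAPN replicate 2 exceeded all of these, at 55.6 for Cd3g and 140.1 for Cd79a, and its summed T and B cell markers came to 242 and 655, against 30.1 and 72.1 in BAPN replicate 1. The 9 red blood cell markers had mean log2 levels of 11.7 and 11.5 with TPA and 11.6 and 11.7 with BAPN alone. All 9 lay above both T-5224 libraries, with a median of 2.46. Of 13 airway markers 9 did, and the club cell gene Cyp2f2 was at 416 and 267 with TPA, 0.52 and 45.5 with T-5224 and 860.3 and 3.14 on water. The summed airway markers came to 16700 and 7760 with TPA, 21.8 and 5030 with T-5224 and 14700 and 41.3 in normal, so that 1 normal library held them too. Of 13 endothelial markers 3 lay above both and 9 had TPA between, where 33.8% of all tested genes had TPA between. Of 8 platelet markers 0 lay above both, and of 5 mast cell markers 1 did. None of these genes passed, and the part of such tissue in the other differences was not tested.

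**Figure D4:**
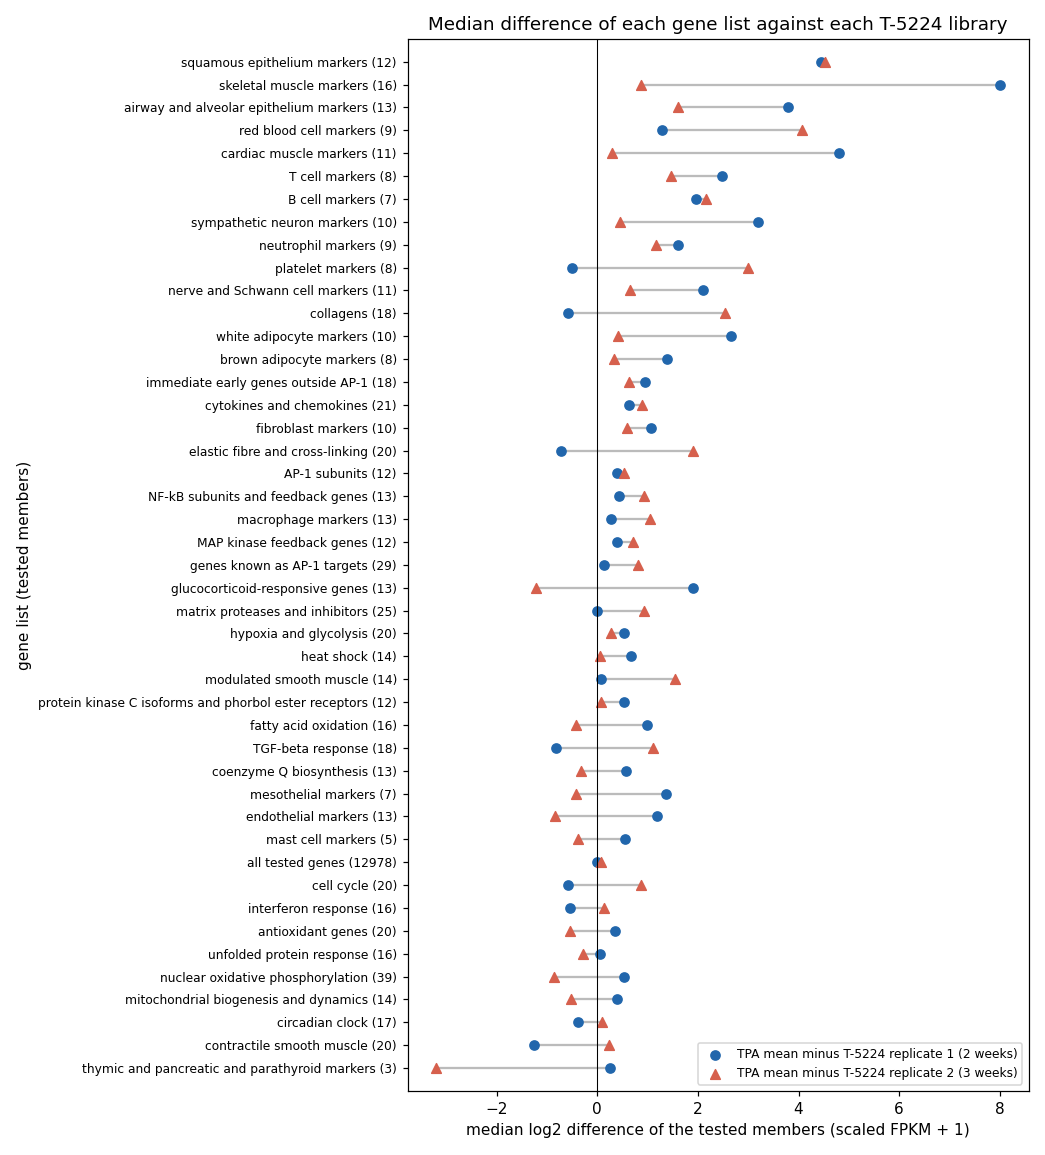
Median log2 difference of each gene list, TPA mean minus T-5224 replicate 1 (circles) and minus replicate 2 (triangles). Squamous markers sit at 4.45 and 4.52. Of these 12 tested markers 8 passed the filter only through TPA, so they had to lie above. Collagens move from -0.574 to 2.53 and skeletal muscle markers from 8.01 to 0.861.

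The T-5224 libraries disagreed with each other in many genes, and matrix, red cell, striated muscle, endothelial and glucocorticoid-responsive genes were among them. Both TPA libraries lay between the T-5224 libraries in 4387 genes, or 33.8%. In a second limma fit with these libraries as separate groups, 283 genes were higher in replicate 2 (2.18%) and 167 lower (1.29%), and 366 of the 450 had TPA between. This fit compares 2 libraries, not 2 durations, and assumes that each varies like the normal, BAPN and TPA pairs. Without BAPN replicate 1, BAPN replicate 2, TPA replicate 1 or TPA replicate 2 it called 0 genes, and without normal replicate 1 or normal replicate 2 it called 2409 and 2372.

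Many genes of the extracellular matrix were far lower in T-5224 replicate 2. Eln, which encodes elastin, was at 6427 in T-5224 replicate 1 and 61.6 in replicate 2, with 2267 and 1334 in TPA (log2 difference -6.68, SE 1.18, adjusted p = 0.0465, limma). Col1a1, a chain of type I collagen, was at 903 and 14.5, with 546 and 397 in TPA (-5.86, SE 0.474, adjusted p = 0.0241, limma). Of 18 collagen genes 12 had TPA between, against 33.8% of all tested genes. The median log2 difference of the 18, replicate 2 minus replicate 1, was -3.5, against 0.034 over all tested genes. Their median against TPA was -0.574 with replicate 1 and 2.53 with replicate 2, so the direction of the collagen list depended on 1 library. Postn, a matrix protein of activated fibroblasts, was at 1023 and 31.9, and Col15a1, a basement membrane collagen, at 148 and 3.18. Both were lower in replicate 2 (adjusted p = 0.0385 and 0.0286, limma). Thbs1, an adhesive matrix glycoprotein, was at 78.7 and 7.59 (adjusted p = 0.0423, limma).

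Several red cell genes were also lower in replicate 2. Alas2, the haem synthesis enzyme of red cells, was at 963 and 124, below 2551 and 2188 in TPA (adjusted p = 0.0336, limma). Slc4a1, the red cell anion exchanger, was at 14.6 and 0.13 (adjusted p = 0.0286, limma). The median log2 difference, replicate 2 minus replicate 1, was -2.81 over 9 tested red cell markers, against 0.034 over all tested genes. It was -3.39 over 8 platelet markers and 1.55 over 9 neutrophil markers. The platelet chemokine gene Ppbp was at 185 and 2.55, with 73.3 and 17.6 in TPA (adjusted p = 0.0438, limma).

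By their medians, the lists of glucocorticoid response, endothelium and striated muscle stood higher in replicate 2. Tsc22d3, a glucocorticoid-induced leucine zipper protein, was at 28.6 in replicate 1 and 323 in replicate 2, with 202 and 160.5 in TPA (3.45, SE 0.44, adjusted p = 0.0346, limma). Of 13 glucocorticoid-responsive genes 10 had TPA between, against 33.8% of all tested genes. Their median log2 difference between the T-5224 libraries was 2.96, against 0.034 over all tested genes. Flt1, a VEGF receptor, was at 3.20 and 27.2 with 18.4 and 20.9 in TPA. The median difference of the 13 endothelial markers was 2.4. It was 6.57 for the 16 skeletal muscle markers and 4.3 for the 11 cardiac markers. The cardiac markers summed to 43.7 and 2130 in T-5224 and 5190 and 2790 in TPA. Tnnt3, a fast skeletal muscle troponin, was at 3.58 and 3249 (adjusted p = 0.0863, limma), and the skeletal muscle markers summed to 145 and 11100 in T-5224 and 11600 and 21600 in TPA. Ankrd2, a striated muscle gene, was at 0.164 and 142 (adjusted p = 0.0385, limma). Pth, the parathyroid hormone gene, was at 0 and 247, with 0 and 7.45 in TPA (adjusted p = 0.0427, limma). The nuclear genes of oxidative phosphorylation had TPA between in 31 of 39, with a median of 1.5 between the T-5224 libraries and none passing. Among genes at least 2 log2 units higher in replicate 2 the median transcript length was 2068 bases, and among those as much lower it was 3734. The part of transcript length and of muscle markers in these differences was not tested, and the titled durations and the libraries cannot be told apart.

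**Figure D5:**
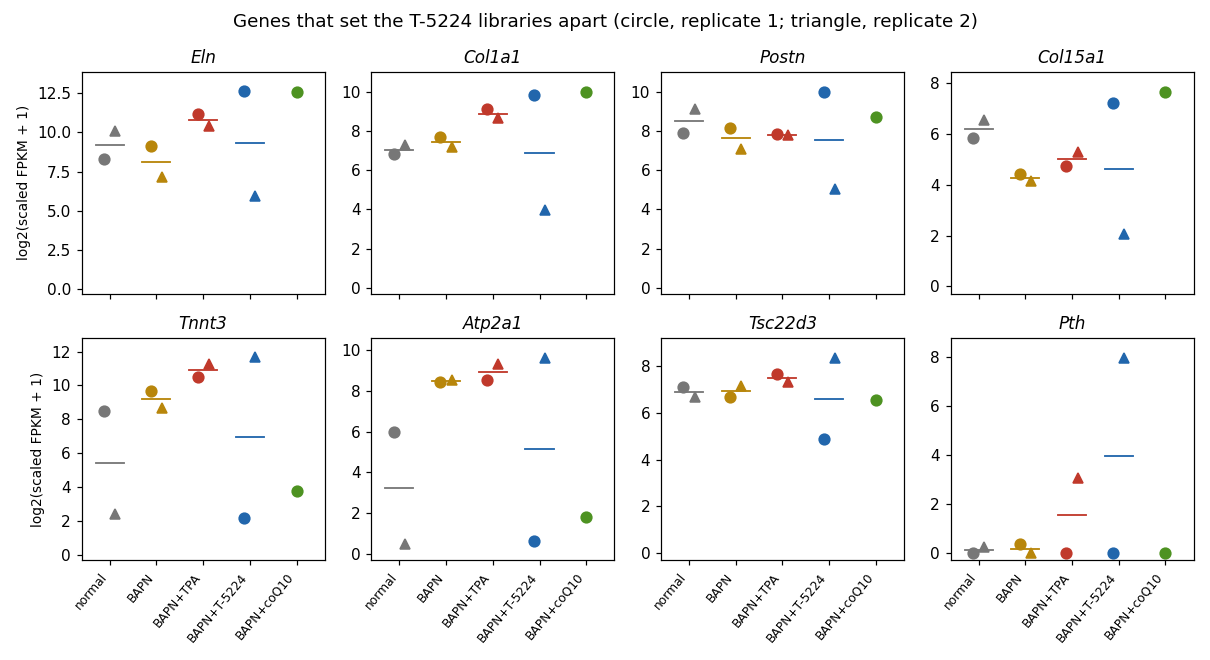
Levels of 8 genes as log2(scaled FPKM + 1), 1 symbol per library (circle replicate 1, triangle replicate 2) and a line at the mean of each group of 2. Eln, Col1a1, Postn and Col15a1 are low in T-5224 replicate 2, while Tnnt3, Atp2a1, Tsc22d3 and Pth are high in it.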

How the data were processed

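The values are FPKM per gene symbol deposited by the authors, 1 table per library with 2 decimals, and the mouse build mm10 is named per the submitters' processing notes. Per the labels' protocols, Trizol RNA went into TruSeq libraries. The aligner, the counting tool and the annotation were not given in the sources used here. Unlisted genes were set to 0. The depth per library is unknown, so no counting intervals are given. FPKM were scaled by the median of ratios over genes above 0 in all 9 libraries, and genes with a mean of at least 1 were tested as log2(FPKM + 1). limma 3.58.1 (R 4.3.3) fitted 1 mean per group to all 9 libraries with an intensity trend and 4 residual degrees of freedom, two-sided, with Benjamini-Hochberg adjustment and a threshold of 0.05. A second fit split the T-5224 libraries and had 3. The fit was tested on simulated data. Lists (44, of which 19 held markers) are described by counts and medians. The members and lists were chosen with earlier results of these data known. Named genes were the 12 per direction that passed or, failing that, had the smallest p without overlap, all AP-1 subunits, up to 4 per list by p, and the 8 per direction with the widest T-5224 disagreement around TPA, and a selection is printed. Some genes that this rule takes are left out. Symbols matched RefSeq for 17131 of 17179 (99.7%). Lengths came from GENCODE M21, and promoters and coordinates from RefSeq GRCm38.p6, the assembly also called mm10. Figures used python 3.11.15, pandas 2.3.3, numpy 2.4.6 and matplotlib 3.10.9. Alternatives covered scaling, pseudocount, filter, variance model, length trend, replicate block and leaving out each library.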

Additional observations from a re-analysis of the deposited data

How the results depend on the processing

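Between the arms 3 genes were higher and 0 lower. The count of higher genes was 0 with a pseudocount of 0.1, with a mean FPKM of at least 5 and in a fit of the 4 libraries alone, and 13 without a filter. Leaving out 1 library gave 0 to 186 higher and 0 to 272 lower genes, with both maxima without T-5224 replicate 1. Between the T-5224 libraries 450 genes differed, against 693 on TPM, 2491 with haemoglobin left out of the sum, 54 after quantile normalization, 730 with a pseudocount of 0.1 and 88 without a filter, and 0 to 2409 when 1 library was left out. That comparison could not be run without either T-5224 library or on the 4 libraries alone. The labels do not pair the numbers, and same-numbered TPA and T-5224 libraries deviated together at r = 0.18. With the replicate block 2 genes were higher, 0 lower and 0 differed between the T-5224 libraries. Krt13 and Mt4 missed the threshold at a pseudocount of 0.1 (adjusted p = 0.204 and 0.592, limma), a mean of at least 5 (0.194 and 0.568) and in the 4 libraries alone (0.225 and 0.118), and Krtdap also on TPM (0.08), with haemoglobin left out (0.0539), without the length trend (0.0694) and with the block (0.165). The all-gene median of 0.0509 moved to -0.524 on TPM and 0.534 with haemoglobin left out. Signs reversed for Jun (-0.22), Jdp2 (-0.50) and Tpm1 (-0.073) on TPM. They reversed for Fosl1 (0.17), Jund (0.084), Atf2 (0.39) and Batf3 (0.092) with haemoglobin left out, and for Fosl1 (0.14) and Batf3 (0.28) without the length trend. Leaving out 1 library gave -0.88 to 0.70 for Fosl1, -0.070 to 1.03 for Jun, -0.16 to 1.67 for Atf3, -0.75 to 0.39 for Batf3 and -0.066 to 0.42 for Jdp2. The cause of these changes was not tested. Because the depth is unknown, values near 0 have no stated precision.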

Other observations

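The cell cycle list gave no direction between the arms: 14 of 20 tested genes had both TPA libraries between the T-5224 libraries and 4 lay below both. Over all tested genes these shares were 33.8% and 20.6%. Ccnb2, a mitotic cyclin, was at 3.94 and 2.75 scaled FPKM with TPA and at 7.09 and 6.09 with T-5224, and Tyms, an enzyme of thymidylate synthesis, at 3.80 and 5.53 against 7.05 and 15.2. Neither passed in limma (adjusted p = 0.577 for both). In the circadian clock list Nr1d1, a repressor of the clock loop, was at 20.2 and 26.7 with TPA, 41.6 and 62.9 with T-5224 and 106 in the coQ10 library. Bhlhe40, another clock repressor, was at 47.0 and 50.1 against 22.8 and 28.6. Both pairs were without overlap and neither gene passed. The brown fat gene Ucp1 was at 82.4 and 87.1 with TPA, 20.6 and 19.6 with T-5224 and 260.2 in the coQ10 library, and the fat droplet gene Plin1 at 40.9 and 49.1 in TPA and 8.37 and 5.21 in T-5224. On water Ucp1 was at 197 and 28.7 and Plin1 at 138 and 9.18. Of 10 white adipocyte markers 4 lay above both T-5224 libraries and 5 had TPA between, and of 8 brown ones 5 and 2 did. Over all tested genes these shares were 22.4% and 33.8%. White markers summed to 5020 and 6840 with TPA and 1240 and 21100 with T-5224. The interferon-induced gene Bst2 was at 47.1 and 39.7 with TPA and 72.0 and 102 with T-5224, and its list had 3 of 16 genes above both T-5224 libraries and 5 below both, against 22.4% and 20.6% of all tested genes.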
